A study of Mus musculus with 4 samples.

Results

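Immediate early genes are the first genes that a cell transcribes after a signal, without new protein synthesis. The 10 genes described here are *Nr4a1*, *Fos*, *Fosb*, *Jun*, *Egr1*, *Egr2*, *Egr3*, *Ier2*, *Sik1* and *Nab2*, taken by their gene symbols from 23235 symbols measured by RNA-seq in mouse haploid embryonic stem cells (haESCs). The samples were treated with RDF, the combination of Repsox (inhibitor of TGF-β pathways), DMH1 (inhibitor of the BMP4 pathway) and Forskolin (activator of adenylate cyclase), or with the solvent DMSO alone, and 2 samples of each were sequenced. The sequenced line, per the study's methods and legends, was HG165, an androgenetic line from young C57BL/6 mice, so that both groups are the same line and carry a paternal genome only. Cells were in general kept in serum-containing ES medium with leukemia inhibitory factor. The labels mention feeder cells, whereas the methods restrict feeders to certain assays. The doses and the length of treatment of these samples are not given in the sources used here, and no sample received Forskolin by itself, so that the parts of Forskolin, Repsox and DMH1 in any difference cannot be told apart.

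Forskolin raises cAMP, which activates protein kinase A and, through it, CREB, a transcription factor that binds the cAMP response element (CRE). A second route runs through the kinase ERK to SRF, which binds the CArG box together with ETS-family partners. Both routes are known to switch on immediate early genes, whose mRNAs are usually short-lived. Their products are mostly transcription factors (the Fos and Jun proteins of AP-1, the zinc finger proteins of the Egr family, the orphan nuclear receptor Nr4a1) together with brakes on the same routes, such as Nab2, which represses Egr proteins, and Sik1, a kinase that holds back the CREB coactivators of the Crtc family.

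Expression is given as FPKM, fragments relative to transcript length and to the number mapped, which allows levels of different genes to be set side by side. The sums of FPKM lay between 718064 and 764461 per sample. The depth was estimated from the whole-fragment steps of low values and lay between about 10400000 and 13200000 fragments per sample. Of the 8 embryonic stem cell markers looked up, all were expressed, and *Pou5f1* lay between 939 and 1285 FPKM. Values were compared as log2(FPKM + 1) with limma over the 11733 genes whose mean reached 1 FPKM, and a gene was called at a Benjamini-Hochberg adjusted p under 0.05. A log2 fold change is the RDF mean minus the DMSO mean on that scale, on which the change of low genes is understated. Nothing in the labels says whether the samples of a group were separate cultures, so the p-values measure only the spread between these samples. In bulk RNA, a change in the number of cells that express a gene and a change in its RNA per cell cannot be told apart.

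Of the 10 genes, 9 were higher in RDF-treated haESCs and *Jun* was not. The 3 Egr genes rose most, *Egr1* from 18.7 ± 0.318 to 79.6 ± 7.31 FPKM (SD, n = 2 each). The 6 genes *Nr4a1*, *Nab2*, *Sik1*, *Ier2*, *Fos* and *Fosb* rose by log2 fold changes of 0.60 to 0.86. All 10 passed the filter on low values, although *Egr2* and *Egr3* did so only through their RDF samples, since their DMSO means were under 1 FPKM, and such genes had to differ. Limma called 9 of the 10 higher, where 13.3% of all genes tested were called higher. Limma called 0 of the 10 lower, and 0 were lower at an unadjusted p under 0.05, where 8.28% of all genes tested were called lower. In the same 9 genes both RDF values lay above both DMSO values, as they did in 37.1% of the genes tested. By the ratio of group mean FPKM, 4 of the 10 (*Egr1*, *Egr2*, *Egr3* and *Nab2*) rose more than 2-fold, against 1.37% of the genes tested. The median log2 fold change was 0.78 over the 10 genes and 0.026 over all genes tested.

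**Figure D1:**
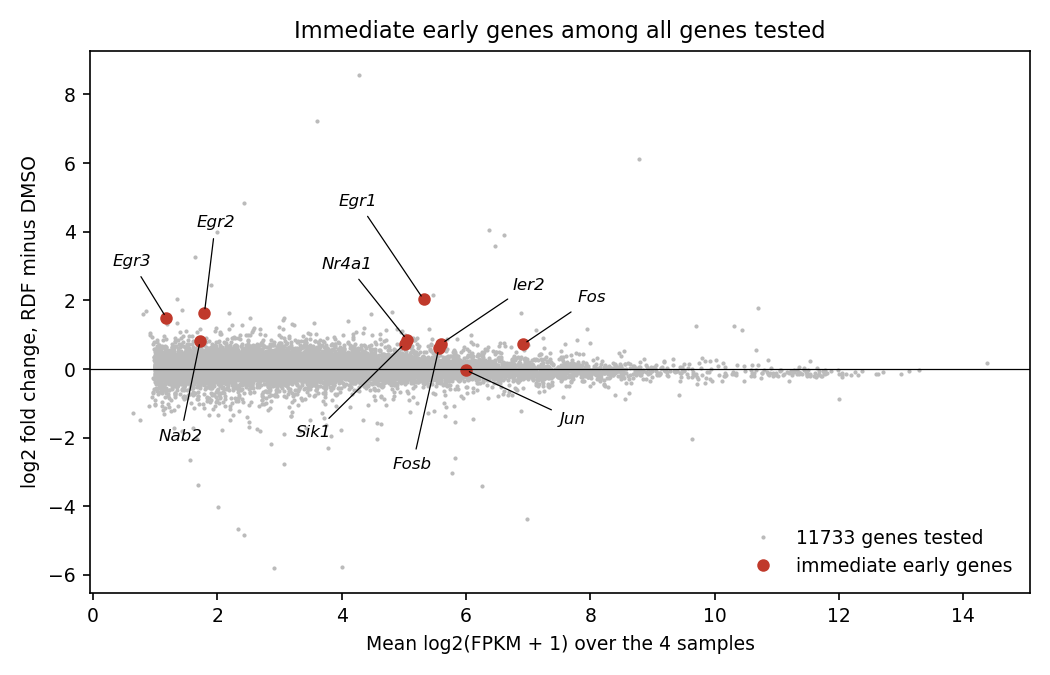
Each grey point is one of the 11733 genes tested, with its mean log2(FPKM + 1) over the 4 samples on the x axis and its log2 fold change, RDF minus DMSO, on the y axis. The 10 immediate early genes are in red: *Egr1* is the highest of them at 2.03, 6 genes lie between 0.60 and 0.86, and *Jun* lies at the zero line.

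The differences between replicates of these genes were small beside the rises. On the log2(FPKM + 1) scale the DMSO samples differed by 0.0005 (*Sik1*) to 0.19 (*Fosb*) and the RDF samples by 0.0079 (*Egr3*) to 0.22 (*Fosb*), where the median over all genes tested was 0.089 in DMSO and 0.087 in RDF. *Fosb* was the most variable of the 10 within both groups, with a larger difference than 79.1% of genes between the DMSO samples and than 86.5% of genes between the RDF samples. All 9 calls were kept when DMSO replicate 1, DMSO replicate 2 or RDF replicate 1 was left out, and 7 were kept without RDF replicate 2, when *Fosb* and *Nab2* were not called.

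In DMSO, the order of the levels ran from *Fos*, *Jun*, *Fosb*, *Ier2*, *Sik1*, *Nr4a1* and *Egr1* down to *Nab2*, *Egr2* and *Egr3*. *Fos* stood highest at 93.4 ± 2.60 FPKM and *Egr3* lowest at 0.353 ± 0.0406 FPKM (SD, n = 2 each). The DMSO ranges of *Fosb* and *Ier2* overlapped, as did those of *Sik1* and *Nr4a1*, and the other neighbours in this order did not overlap. In RDF, *Egr1* moved from the 7th to the 2nd place and passed *Jun*, which went from the 2nd to the 3rd. The RDF ranges of *Jun* and *Ier2*, of *Ier2* and *Fosb*, and of *Nr4a1* and *Sik1* overlapped.

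**Figure D2:**
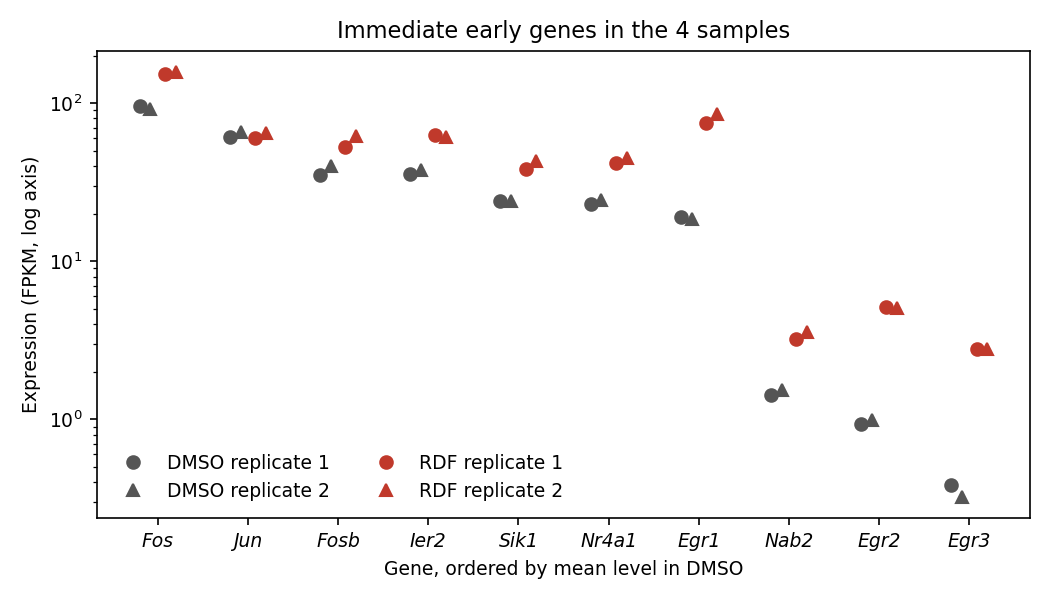
Expression of the 10 genes in FPKM on a log axis, ordered by their mean in DMSO, with DMSO samples in grey and RDF samples in red (circles for replicate 1, triangles for replicate 2). The red points lie above the grey ones for every gene but *Jun*, whose 4 values lie between 59.9 and 65.4 FPKM.

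The sequence before the start of some of these genes shows where letters of the classical CREB and SRF elements lie. RefSeq windows of build GRCm38.p6 were found for 6 of the 10 genes (*Nr4a1*, *Fos*, *Fosb*, *Egr2*, *Nab2* and *Jun*), and the 250 bases before each start were searched on both strands. The motifs were the CRE core TGACG, written as its reverse complement where it lies on the other strand, the full CRE TGACGTCA (which contains the core), the variant TGACNTCA (which includes the full CRE), the CArG box, and the EGR site GCGNGGGCG. The sequences of 3 genes that rose and of *Jun* are printed. They contrast a promoter with several CRE cores, one with 2, one with both CRE cores and a CArG box, and one with neither. They were picked by their matches, and *Nab2*, which rose and held no match, is not printed. No window was found for *Egr1*, *Egr3*, *Ier2* or *Sik1*. Whether matches go with the rises was not tested. Capitals mark CRE cores, CArG boxes and variant CREs.
*Nr4a1* (chr15:101266596-101266845, plus strand): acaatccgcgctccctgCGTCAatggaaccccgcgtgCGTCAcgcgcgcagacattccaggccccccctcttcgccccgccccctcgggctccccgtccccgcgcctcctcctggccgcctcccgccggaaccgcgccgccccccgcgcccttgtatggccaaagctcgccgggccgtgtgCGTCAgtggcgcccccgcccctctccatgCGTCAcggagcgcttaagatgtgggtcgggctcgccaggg
*Fos* (chr12:85473640-85473889, plus strand): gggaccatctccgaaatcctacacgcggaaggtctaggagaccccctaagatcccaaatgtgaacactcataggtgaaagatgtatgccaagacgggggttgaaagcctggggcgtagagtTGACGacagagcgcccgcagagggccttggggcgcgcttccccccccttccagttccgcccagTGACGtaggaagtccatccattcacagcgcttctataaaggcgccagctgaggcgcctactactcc
*Egr2* (chr10:67537619-67537868, plus strand): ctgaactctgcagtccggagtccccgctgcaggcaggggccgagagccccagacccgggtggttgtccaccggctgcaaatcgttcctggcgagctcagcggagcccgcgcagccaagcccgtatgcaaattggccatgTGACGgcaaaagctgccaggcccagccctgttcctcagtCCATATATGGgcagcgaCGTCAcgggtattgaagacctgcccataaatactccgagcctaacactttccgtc
*Jun* (chr4:95052223-95052472, minus strand): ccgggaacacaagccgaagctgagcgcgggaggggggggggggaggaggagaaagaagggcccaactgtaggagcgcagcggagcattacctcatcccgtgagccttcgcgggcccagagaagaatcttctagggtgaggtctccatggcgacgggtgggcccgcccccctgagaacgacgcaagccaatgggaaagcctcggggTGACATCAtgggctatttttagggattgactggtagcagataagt

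The *Nr4a1* window held 4 CRE cores, which began 233, 213, 69 and 40 bases before the start, and an EGR site that began 60 bases before it. The *Fos* window held 2 CRE cores, at 129 and 66 bases. *Fosb* had 1 core at 60 bases and an EGR site at 50 bases. *Egr2* has 5 windows in the table, 3 of which overlap and hold the same 3 matches at different distances from their starts. In the printed one, 2 cores at 111 and 55 bases lay on either side of a CArG box at 72 bases. A further *Egr2* window held a CArG box of other letters, and the remaining one held no match. *Jun*, the gene without a rise, held 1 variant CRE at 45 bases and no core, and *Nab2*, which rose, held no match to any of the 5 motifs in this window. Over all 32851 windows of this length, 17.8% held a CRE core, 1.55% a full CRE, 7.49% the variant, 1.47% a CArG box and 4.70% an EGR site. A match describes letters and is not a measured binding site, and elements farther from the start were not searched.

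**Figure D3:**
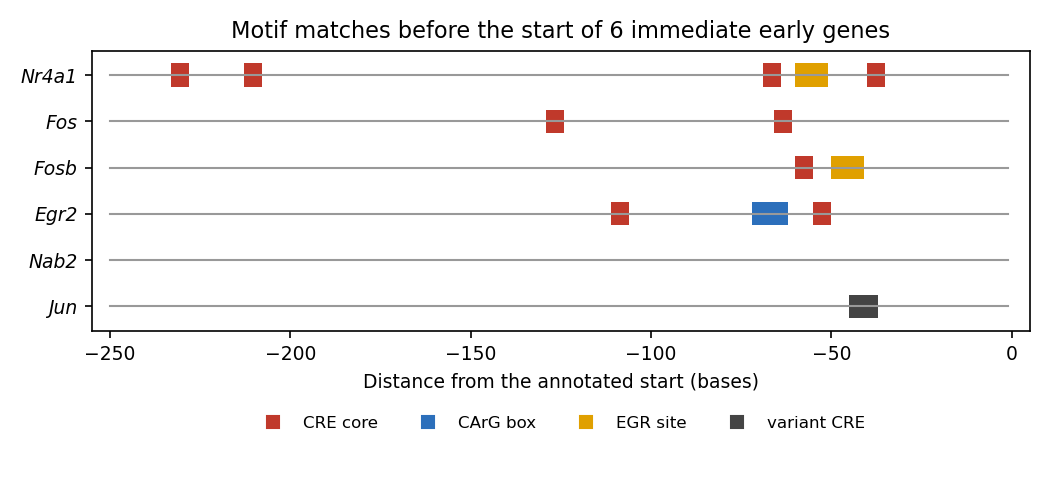
Motif matches in the 250 bases before the annotated start of 6 genes, with the distance from the start in bases on the x axis and 1 window per gene (for *Egr2* the printed one). *Nr4a1* has 4 CRE cores, *Fos* 2, *Fosb* 1 and *Egr2* 2 with a CArG box between them, while *Jun* has a variant CRE and *Nab2* no match.

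The Egr genes encode zinc finger transcription factors that bind GC-rich sites and that respond to ERK and SRF in many cell types. *Egr1*, on chromosome 18 from 35020861 to 35024638 (mouse build NCBIM37, the assembly mm9), was measured at 19.0 and 18.5 FPKM under DMSO and at 74.4 and 84.8 FPKM under RDF. The groups were far apart, with a ratio of means of 4.25 and a log2 fold change of 2.03 (SE 0.075, adjusted p = 0.000174). This was the 13th largest rise among the 11733 genes. *Egr2*, on chromosome 10 from 66998223 to 67004936, was at 0.937 and 0.984 FPKM under DMSO and at 5.13 and 5.08 FPKM under RDF. Its replicates were close to each other and the groups far apart, with a ratio of means of 5.32 and a log2 fold change of 1.64 (SE 0.097, adjusted p = 0.000678). Both *Egr2* and *Egr3* passed the filter only through their RDF samples, so their groups had to differ and their adjusted p adds little. *Egr3*, on chromosome 14 from 70477252 to 70479964, reached only 0.382 and 0.324 FPKM under DMSO but 2.80 and 2.78 FPKM under RDF. With a ratio of means of 7.90 it had the largest ratio of the 10 genes, while its log2 fold change was 1.49 (SE 0.11, adjusted p = 0.00129) because of the pseudocount, and 2.68 with a pseudocount of 0.1.

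Few fragments lie behind the low values. Estimated on the longest annotated transcript, *Egr2* had about 27 and 34 fragments in the DMSO samples and 189 and 170 in the RDF samples. For *Egr3* the estimate was about 5 fragments in each DMSO sample (exact 95% Poisson interval 1.62 to 11.7) and 46 and 41 in the RDF samples (33.7 to 61.4 and 29.4 to 55.6). These intervals cover counting error only. The annotation gives *Egr3* a longest transcript of 1416 nucleotides, and a longer one would mean proportionally more fragments. *Egr4*, the remaining member of the family, had 0.635 and 1.04 FPKM in DMSO and 3.22 and 1.79 FPKM in RDF, a log2 fold change of 0.91 (SE 0.22, adjusted p = 0.0341). It too passed the filter only through its RDF samples, which lay above the DMSO samples but differed widely from each other, and when samples were left out in turn the adjusted p reached 0.133. Summed over the 4 Egr genes, FPKM was 20.9 in both DMSO samples and 85.6 and 94.4 in the RDF samples, of which *Egr1* made up 87.0% to 90.7% in every sample.

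*Nab2* encodes a corepressor that binds Egr proteins and is itself a known Egr target, which makes it a feedback brake. It lies on chromosome 10 from 127097974 to 127105624 and had 1.43 and 1.52 FPKM in DMSO and 3.22 and 3.58 FPKM in RDF. The groups did not overlap, with a ratio of means of 2.31 and a log2 fold change of 0.83 (SE 0.10, adjusted p = 0.00525). Without RDF replicate 2 its adjusted p was 0.0566. These levels rest on about 36 and 45 fragments with DMSO and 102 and 103 with RDF. *Nab2* shares 40 exonic bases with *Stat6*, 151 with *Tmem194* and 1050 with *Gm16229*, all on the opposite strand. How fragments of overlapping genes were assigned is not stated. *Stat6* had a log2 fold change of 0.14 (adjusted p = 0.206). The paralog *Nab1* had 1.52 and 1.59 FPKM in DMSO and 1.95 and 1.81 FPKM in RDF, a log2 fold change of 0.17 with a 95% interval of -0.09 to 0.43 (adjusted p = 0.283). Within a sample, the summed FPKM of the Egr family was 7.09 and 6.69 times that of the Nab family in DMSO and 16.6 and 17.5 times in RDF, and the ranges did not overlap.

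*Fos* and *Fosb* encode the Fos partners of AP-1, which binds DNA as a pair with a Jun protein. *Fos*, on chromosome 12 from 86814840 to 86818223, stood at 95.3 and 91.6 FPKM with DMSO and at 153 and 157 FPKM with RDF. Its replicates lay within a few FPKM of each other, and its log2 fold change was 0.73 (SE 0.054, adjusted p = 0.00129), a ratio of means of 1.66. *Fosb*, on chromosome 7 from 19888070 to 19895394, stood at 35.0 and 40.0 FPKM with DMSO and at 52.9 and 61.7 FPKM with RDF. The groups did not overlap but its spread was wider, with a log2 fold change of 0.60 (SE 0.097, adjusted p = 0.0106) that had an adjusted p of 0.0755 without RDF replicate 2.

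Both Fos relatives were also called higher, as were 13.3% of all genes tested. *Fosl2* had 4.79 and 4.80 FPKM in DMSO and 7.78 and 9.06 FPKM in RDF (log2 fold change 0.70, adjusted p = 0.00655). *Fosl1* had 0.753 and 0.638 FPKM in DMSO and 1.58 in both RDF samples (log2 fold change 0.61, adjusted p = 0.0170). Like *Egr2* and *Egr3*, *Fosl1* passed the filter only through its RDF samples. Neither relative was called without RDF replicate 2, and *Fosl1* was also not called without RDF replicate 1. Summed over the 4 Fos genes, FPKM was 136 and 137 in DMSO and 215 and 230 in RDF, and *Fos* made up 66.9% to 71.0% of it.

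*Jun* encodes the Jun partner of AP-1 and is a classical target of Jun kinases as well as of growth factor signals. It lies on chromosome 4 from 94715725 to 94718913 and had 61.3 and 65.4 FPKM in DMSO and 59.9 and 64.4 FPKM in RDF. The ranges of the groups overlapped. The log2 fold change was -0.027 with a 95% interval of -0.18 to 0.13 (adjusted p = 0.782), and between 1917 and 2426 estimated fragments lay behind each value, so that counting error is small here. The upper bound of 0.13 is below the lower bound of every other gene of the 10, the nearest being 0.36 for *Fosb*. When samples were left out, the value ranged from -0.08 to 0.02.

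Of the Jun relatives, 1 was called higher, where 13.3% of all genes tested were called higher and 8.28% lower. *Junb* had 61.8 and 65.9 FPKM in DMSO and 86.6 and 91.2 FPKM in RDF (log2 fold change 0.47, adjusted p = 0.00548), a call that was lost without RDF replicate 2 (adjusted p = 0.0590). *Jund* had 101 and 87.6 FPKM in DMSO and 86.4 and 79.3 FPKM in RDF (log2 fold change -0.18, 95% interval -0.39 to 0.02, adjusted p = 0.170). The family sum was 224 and 219 FPKM in DMSO and 233 and 235 FPKM in RDF. The Fos family sum was therefore 0.606 and 0.626 of the Jun family sum in the DMSO samples and 0.923 and 0.978 of it in the RDF samples, a ratio that does not depend on the scaling between samples.

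*Nr4a1* encodes an orphan nuclear receptor and is a textbook CREB target. It lies on chromosome 15 from 101097277 to 101105223 and had 22.9 and 24.4 FPKM in DMSO and 41.9 and 45.1 FPKM in RDF. The groups were well apart, with a log2 fold change of 0.86 (SE 0.067, adjusted p = 0.00153), a ratio of means of 1.84. Its relatives were far lower. *Nr4a2* had 0.715 and 0.634 FPKM in DMSO and 0.901 and 2.26 FPKM in RDF, with its RDF samples wide apart (log2 fold change 0.57, 95% interval -0.03 to 1.18, adjusted p = 0.150). *Nr4a3* did not reach the filter and had 0.587 and 0.646 FPKM in DMSO and 0.794 and 1.01 FPKM in RDF. *Nr4a1* made up 93.2% to 96.1% of the family sum.

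*Sik1* encodes a salt-inducible kinase that is induced by CREB and restrains CREB coactivators. It lies on chromosome 17 from 31981193 to 31992737 and had 24.0 FPKM in both DMSO samples and 38.4 and 43.1 FPKM in RDF. The log2 fold change was 0.74 (SE 0.071, adjusted p = 0.00259), a ratio of means of 1.70. The relatives *Sik2* and *Sik3*, which are not known as immediate early genes, had log2 fold changes of 0.17 (95% interval -0.05 to 0.40, adjusted p = 0.226) and 0.19 (95% interval -0.04 to 0.42, adjusted p = 0.201). *Sik1* rose from 69.9% and 70.3% of the family sum in DMSO to 76.7% and 78.1% in RDF.

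*Ier2* encodes a short nuclear protein and responds to serum and growth factors. It lies on chromosome 8 from 87185230 to 87186751 and had 35.4 and 38.0 FPKM in DMSO and 62.9 and 60.7 FPKM in RDF. Both RDF values lay more than 20 FPKM above both DMSO values, with a log2 fold change of 0.74 (SE 0.061, adjusted p = 0.00164), a ratio of means of 1.68.

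**Figure D4:**
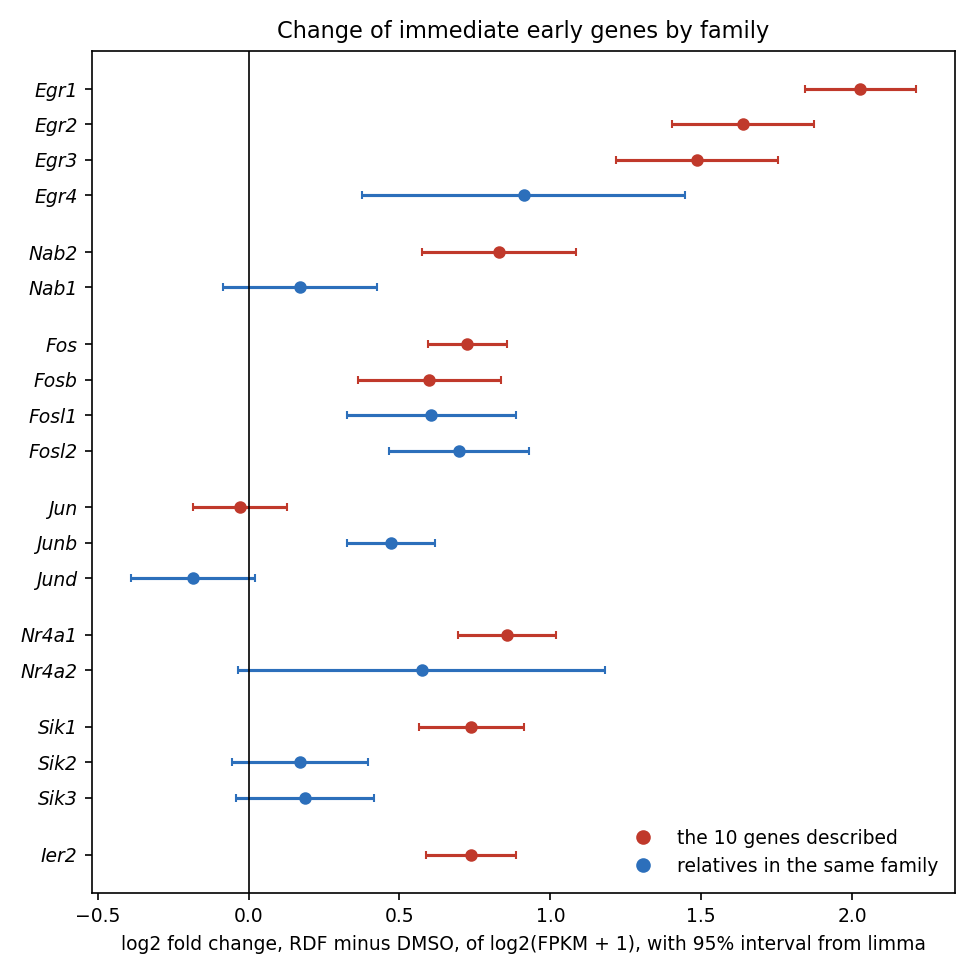
Log2 fold change, RDF minus DMSO, of the 10 genes (red) and their relatives in the same family (blue), with 95% intervals from limma as bars. The interval of *Jun* spans zero while its relative *Junb* lies at 0.47, and *Egr4* (0.91) and *Nr4a2* (0.57) have the widest intervals.

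A list of 28 other immediate early genes held rises, 1 fall and genes that were not called. *Npas4* was listed at 0 in all 4 samples and 27 genes were tested. Of these, 14 were called higher (51.9%, against 13.3% of all genes tested) and 1 lower (against 8.28% of all genes tested). The median log2 fold change of the 27 was 0.41. *Fosl1* and *Egr4*, both among the 14, passed the filter on low values only through their RDF samples and had to differ. The largest rises were those of *Sgk1*, a serum- and glucocorticoid-regulated kinase (27.3 ± 1.09 to 62.6 ± 2.26 FPKM, log2 fold change 1.17), and *Cyr61*, a matricellular protein gene and SRF and YAP target (93.1 ± 4.34 to 205 ± 7.35 FPKM, log2 fold change 1.13, SD, n = 2 each). They were followed by *Plk2*, a polo-like kinase (9.60 ± 0.148 to 19.4 ± 0.944 FPKM, log2 fold change 0.94), and by *Egr4*. The adjusted p of *Sgk1*, *Cyr61* and *Plk2* lay between 0.000476 and 0.00129. *Gadd45b*, a growth arrest and stress gene, fell from 231 ± 8.06 to 181 ± 0.211 FPKM (SD, n = 2 each), with a change of -0.35 on the log2 scale (adjusted p = 0.0092). Of the 27 genes, 12 did not pass the threshold. The count of 15 calls was 7 without RDF replicate 2 and 10 without RDF replicate 1, and the call of *Gadd45b* was lost in both.

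**Figure D5:**
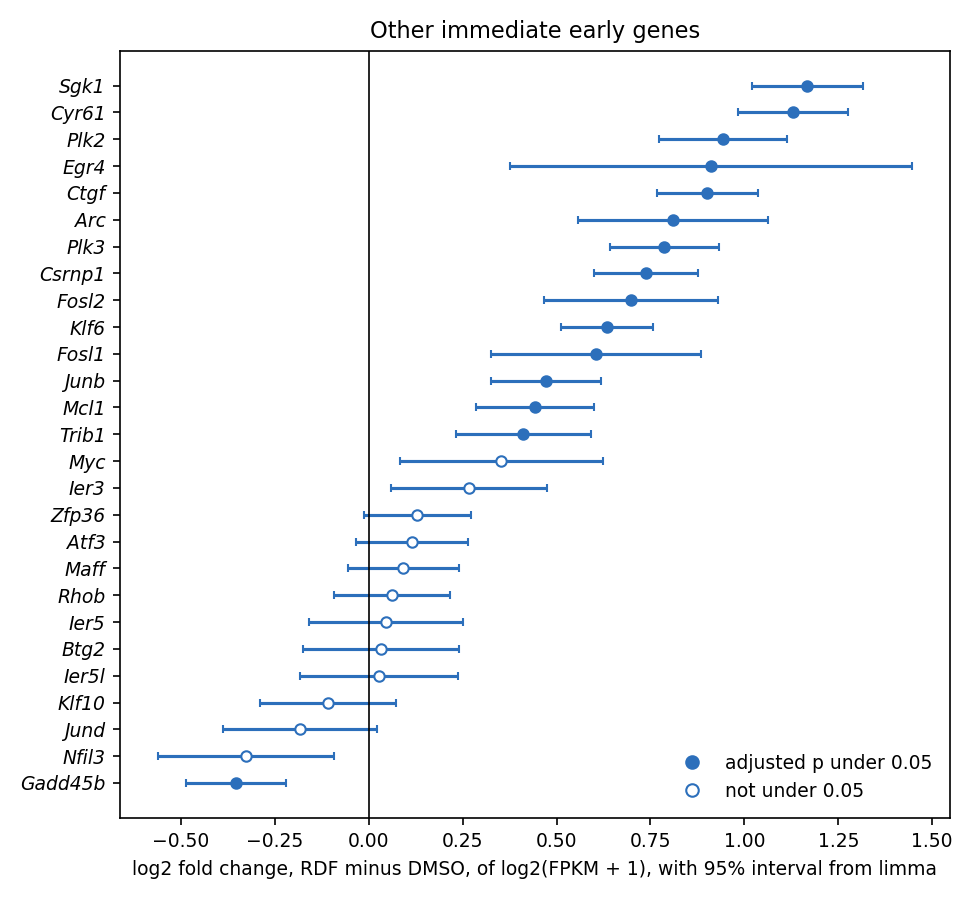
Log2 fold change, RDF minus DMSO, of the 27 other immediate early genes tested, with 95% intervals from limma as bars and filled points for an adjusted p under 0.05. The 14 filled points right of zero run from *Trib1* at 0.41 to *Sgk1* at 1.17, and *Gadd45b* at -0.35 is the filled point left of zero.

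Known targets of cAMP and CREB outside the 10 genes gave few values. Of the 15 listed, 8 were detected below the filter, 2 (*Sst* and *Crh*) were at 0 in all samples, and 5 were tested. *Dusp1*, a phosphatase of MAP kinases that both CREB and ERK induce, was called higher, with 195.5 and 195.6 FPKM in DMSO and 320 and 341 FPKM in RDF (log2 fold change 0.75, adjusted p = 0.00141). The other 4 were not called, so that 1 of the 5 was called higher (20%), against 13.3% of all genes tested. Among these 4, *Nr4a2* and *Rgs2* passed the filter on low values only through their RDF samples. *Crem*, whose inducible repressor form is made from an internal CREB-driven promoter, had 7.81 and 6.14 FPKM in DMSO and 6.80 and 5.97 FPKM in RDF (log2 fold change -0.11, 95% interval -0.41 to 0.20). *Per1*, a clock gene with CREs, had 33.0 and 34.5 FPKM in DMSO and 36.2 and 40.3 FPKM in RDF (log2 fold change 0.18, adjusted p = 0.125). *Crem*, *Per1* and *Rgs2* (log2 fold change 0.18, adjusted p = 0.339) were named after their values had been seen. Values per gene do not separate the forms of *Crem*.

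The genes that carry the signals were called higher at shares near that of all genes tested. Of 18 genes between cAMP and CREB (protein kinase A subunits and inhibitors, CREB and its coactivators), 15 were tested, 2 were called higher and 0 lower (13.3% and 8.28% of all genes tested were called higher and lower), with a median log2 fold change of 0.17. The acetyltransferase *Ep300*, a CREB coactivator, rose from 5.15 ± 0.197 to 10.5 ± 0.915 FPKM (SD, n = 2 each, log2 fold change 0.90, adjusted p = 0.00286). *Prkar2a*, a regulatory subunit of protein kinase A, rose by less (log2 fold change 0.24, adjusted p = 0.0402), and its adjusted p was between 0.0904 and 0.181 when any 1 sample was left out. Of 19 genes between ERK and SRF, *Hras* was not found under that symbol and 18 were tested, with a median log2 fold change of 0.028. Of these, 2 were called higher, among them *Elk3*, an ETS partner of SRF (log2 fold change 0.43, adjusted p = 0.0473), and 1 was called lower, *Mkl2*, an SRF coactivator (log2 fold change -0.48, adjusted p = 0.0228). These 3 calls became 0 without DMSO replicate 1, without RDF replicate 1 or without RDF replicate 2.

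Markers of other cells and of stress also moved between the groups. The 12 fibroblast markers, looked up because of the feeder cells, summed to 44.0 and 43.0 FPKM in DMSO and to 31.5 and 32.6 FPKM in RDF. Of the 8 tested, 4 were called lower (*Col1a1*, *Col1a2*, *Thy1* and *Postn*) and 2 higher (*Dcn* and *Prrx1*). Of all genes tested, 8.28% were called lower and 13.3% higher, the shares to set beside each count of markers here. *Prrx1* passed the filter on low values only through its RDF samples and *Postn* only through its DMSO samples, so that both had to differ. *Fap* was at 0 in 2 of the 4 samples. The 8 primitive endoderm markers summed to 13.1 and 10.6 FPKM in DMSO and to 15.6 and 16.3 FPKM in RDF, and 1 of the 3 tested, *Gata6*, was called higher (adjusted p = 0.0428, up to 0.178 with a sample left out). The 8 embryonic stem cell markers summed to 2377 and 2269 FPKM in DMSO and to 1838 and 1760 FPKM in RDF, with 4 called lower (*Pou5f1*, *Tdgf1*, *Dppa4* and *Utf1*) and 2 higher (*Sox2* and *Zfp42*). Of 10 heat shock genes, 4 were called lower and 0 higher by limma, where 8.28% of all genes tested were called lower and 13.3% higher. *Hspa1a*, an inducible Hsp70 gene, had 30.0 and 29.0 FPKM in DMSO and 5.02 and 5.27 FPKM in RDF (log2 fold change -2.31, adjusted p = 0.000132). Its near-identical copy *Hspa1b* had 28.9 and 27.8 FPKM in DMSO and 7.51 and 7.48 FPKM in RDF (log2 fold change -1.79, adjusted p = 0.000158), and fragments could have been split between them. The part of these markers in the rises was not tested.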

How the data were processed

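Stranded poly(A) libraries, each from 150 ng of RNA, were sequenced on an Illumina instrument. Per the labels and the study's methods, the authors aligned reads with TopHat2 2.0.14 and Bowtie2 2.1.0 to mm9 and deposited FPKM from Cufflinks 2.2.1 with UCSC gene models, in 1 table per sample. Program settings, the use of strand in counting and the treatment of fragments from repeated or overlapping genes are not given in the sources used here. Groups and replicate numbers came from the sample titles.

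From these tables, log2(FPKM + 1) was fitted with limma 3.58.1 in R 4.3.3 (mean-variance trend, no block, two-sided, Benjamini-Hochberg over the 11733 genes whose mean reached 1 FPKM). The fit was tested on simulated data. With 2 samples a group, exact permutation reaches p = 0.333 at best and was not used. Depth was estimated from genes with 1 transcript of at least 1500 nucleotides, shortened by 175 nucleotides to an effective length, with both the depth and this offset chosen for the best fit to whole fragments. Of these low values, 41.5% to 46.2% lay within 0.1 of a whole fragment, against 20% if spread evenly. The same values served to choose the depth and the offset, so this excess is not a separate check of the estimates. Gene positions come from the NCBIM37 annotation (mm9), promoter windows from RefSeq on GRCm38.p6.

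The 10 genes, the lists, the motifs and the tests were chosen with earlier results of these data known. All 10 genes are named, as are the families of these genes and, per list, the called genes with the largest changes (at most 4 up and 4 down). Markers were named by their calls. The values of 1 called gene of a list are not reported here. Alternatives were pseudocounts of 0.1 and 0.5, no filter, a mean of at least 5 FPKM, median-ratio scaling, quantile normalization, the replicate number as a block, no trend, and leaving out each sample.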

Additional observations from a re-analysis of the deposited data

How the results depend on the processing

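The count of the 10 genes called higher stayed at 9 under every alternative except a mean of at least 5 FPKM, where *Egr2*, *Egr3* and *Nab2* were not tested and 6 were called, and except without RDF replicate 2, where 7 were called. Over the samples left out in turn this count ranged from 7 to 9, and the count called lower was 0 throughout. When a sample is left out, the remaining one of its group is assumed to vary like the other group. Of the 117 single-gene values under the alternatives, 113 kept their direction and side of the threshold. Of the others, *Fosb* and *Nab2* lost their calls without RDF replicate 2, and *Jun*, never called, changed sign to 0.019 without DMSO replicate 2 and to 0.023 without RDF replicate 1, in a leave-one-out range of -0.078 to 0.023. Without the filter on low values, 942 of all genes were called higher and 606 lower, 1 of the genes between cAMP and CREB and 1 of those between ERK and SRF. A mean of at least 5 FPKM also left 1 call between ERK and SRF, and median-ratio scaling and quantile normalization each left 1 between cAMP and CREB. With samples left out in turn, all genes called higher ranged from 253 to 1121 and lower from 195 to 731, the other immediate early genes called from 7 to 16, cAMP and CREB targets from 1 to 2, genes between cAMP and CREB from 1 to 1 and genes between ERK and SRF from 0 to 2. Median-ratio scaling gave 1336 higher and 1179 lower, against 1561 and 972. With the replicate block the 10 genes gave 9 calls and all genes 1651 higher and 1066 lower. The labels do not say that a number marks a shared culture or day, and the deviations of same-numbered samples correlated weakly over the 11733 genes (Pearson 0.134, Spearman 0.114), with genes not being independent. The cause of these moves was not tested. Depth limits the low values of *Egr3* most.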

Other observations

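Of all genes tested, 5 were nearest to *Egr1*, the gene of the 10 with the largest log2 fold change, by the Euclidean distance of log2(FPKM + 1) centred on each gene's mean over the 4 samples. *Stra8*, a retinoic acid-induced gene of germ cells, was nearest at a distance of 0.256, with 20.9 and 18.9 FPKM in DMSO and 95.5 and 88.5 FPKM in RDF. *Dcn*, which encodes the matrix proteoglycan decorin, followed at 0.397, and *S100a8*, a calcium-binding protein gene of myeloid cells that was listed at 0 in both DMSO samples, at 0.405 with 2.39 and 2.08 FPKM in RDF. *Egr2* came next at 0.415, and *Id3*, an inhibitor of helix-loop-helix factors, at 0.438 with 13.3 and 16.5 FPKM in DMSO and 47.2 and 50.6 FPKM in RDF. With 4 samples in 2 groups this measure mostly reflects the size of the change. Both *S100a8* and *Egr2* passed the filter on low values only through their RDF samples, so that they had to differ between the groups.

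Some of the 10 genes overlap other annotated genes on the opposite strand, besides *Stat6* at *Nab2*. *Nab2* shares 151 exonic bases with *Tmem194*, which had 19.4 and 20.9 FPKM in DMSO and 21.1 and 21.0 FPKM in RDF, a log2 fold change of 0.061 (adjusted p = 0.529 from limma), and 1050 with *Gm16229*. *Jun* shares 232 with *BC042782*, and *Egr1* shares 8 with *Gm17507*. *Gm16229*, *BC042782* and *Gm17507* were not found under those symbols among the measured genes, so they have no value here.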
